A study of Rattus norvegicus with 4 samples.

Results

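Zinc finger proteins hold short folds in which cysteine and histidine residues grip a zinc ion, and a row of such folds can read a stretch of DNA or bind RNA. Most mammalian genes named Zfp code for transcription factors with many fingers of the C2H2 type. A large share of them also carry a KRAB domain, which recruits the co-repressor Trim28 and with it a complex that silences transposable elements and imprinted loci. Others act outside transcription, in RNA binding, ribosome assembly or protein turnover.

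The genes described here are the protein-coding rows whose symbol is Zfp followed by a number and whose counts summed to at least 40 over the 4 libraries. They number 218 of the 21648 gene identifiers in the table. Another 34 identifiers with such a name fell below the limit, 15 of them with no count at all. The nearest outside were Zfp503 with a summed count of 38 and Zfp296 with 37, and the nearest inside were Zfp341 with 57 and Zfp219 with 62. The name is a label and not a domain test. RefSeq (assembly GRCr8) gives 10 of the 218 another symbol, such as Zbtb18 for Zfp238 and Zpr1 for Zfp259. The symbol Zfp128 stands on 2 identifiers, which were kept apart. Domain content was not analysed here, since no protein sequences were used.

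RNA was sequenced from cultures of rat cortical neurons, bought as cortex of embryonic day 18 (E18), that received either the solvent DMSO or topotecan, an inhibitor of topoisomerase I. Topoisomerase I nicks and reseals a DNA strand and so releases the twist that builds up ahead of RNA polymerase. Per the series text, the drug was given to lower the expression of long genes. There were 2 libraries per group, with 22957786 to 31181382 counts each. The sources used here do not give strain, dose, time of exposure or whether duplicates were separate cultures. P-values therefore measure the spread between these libraries, which may be technical. The cultures were not of neurons alone. All 19 pan-neuronal markers with a row were detected, and their summed level was 29320 to 31710 CPM (counts per 1000000) in DMSO and 34360 to 35570 in topotecan. The 14 astrocyte markers summed to 6444 and 6606 CPM in DMSO and to 528.8 and 574.6 in topotecan. The 12 oligodendrocyte lineage markers went from 4077 and 4425 to 135.0 and 122.3 CPM, and the 9 radial glia and progenitor markers from 366.4 and 348.3 to 12.28 and 11.74. In such bulk samples, fewer cells of a type and less RNA per cell cannot be told apart.

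Most Zfp genes did not change detectably, and of the 55 that did, 5 changed 2-fold or more. All 218 passed the low-count filter and were tested. In topotecan 20 (9.17%) were lower and 35 (16.1%) higher at an adjusted p under 0.05 by edgeR's quasi-likelihood test. Of all 12162 genes tested, 23.5% were lower and 16.2% higher. The share of Zfp genes that rose was thus near that of all genes, and the share that fell was below it. The median log2 fold change was 0.09 for Zfp genes and -0.01 for all genes. Of the falls, 4 were 2-fold or more (Zfp648, Zfp521, Zfp703 and Zfp804a), where 13.1% of all genes tested fell that far. Of the rises, only Zfp663 reached 2-fold in this test, where 1.27% of all genes did. In none of the 55 called Zfp genes did the 2 groups of libraries overlap, which with 2 libraries per group adds little to the call. Genes not called, such as Zfp939, could be apart too, and the share over all genes tested was not counted. The 163 others had log2 fold changes from -0.95 to 0.52, and 116 of them lay within 0.25 of 0. The 218 genes together made up 0.493% and 0.529% of each DMSO library and 0.535% and 0.542% of each topotecan library.

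Both counts rest on the scaling between libraries. With the libraries scaled to 19 pan-neuronal genes in place of TMM, 40 Zfp genes were lower and 10 higher, and the median log2 fold change turned from 0.09 to -0.15. These 19 are not a fixed reference, since with TMM 8 of them were called higher and 3 lower (median log2 fold change 0.24). The same scaling moved the median of all genes from -0.01 to -0.24, so the Zfp median lay 0.10 above it with TMM and 0.09 above it here. Without topotecan replicate 2 the count of higher genes was 18, and with DESeq2 the count of lower genes was 13. In each of the 12 alternative fits or scalings, 10 of the 20 falls and 10 of the 35 rises were called again, and no called gene changed sign.

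**Figure D1:**
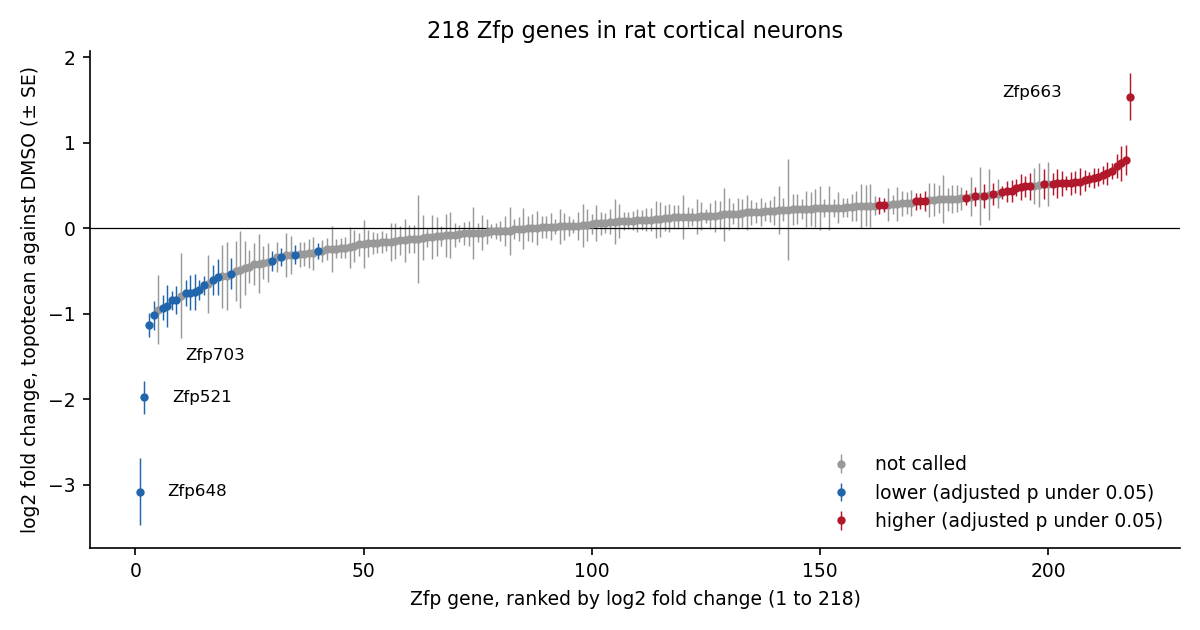
The 218 Zfp genes ranked by log2 fold change of topotecan against DMSO, with bars of 1 SE from the edgeR fit (2 libraries per group). Blue and red mark the 20 lower and 35 higher genes. Most points lie close to 0, and Zfp648 (-3.08), Zfp521 (-1.98) and Zfp663 (1.54) stand at the ends.

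Promoter sequence is shown here for 2 genes among the largest falls and 2 among the largest rises. Their GC content before the start was 47.2% for Zfp648, 58.0% for Zfp804a, 70.0% for Zfp667 and 58.8% for Zfp663. These genes were picked and do not stand for all lower or higher Zfp genes. Each run is the 250 bases before the RefSeq start (GRCr8), 5′ to 3′ on the gene's strand, and capitals mark the GC box, GGGCGG or its reverse complement. Zfp648 lies at chr13:68887261-68887510 on the plus strand and Zfp804a at chr3:87440246-87440495 on the plus strand, both lower in topotecan. Zfp667 lies at chr1:76655134-76655383 and Zfp663 at chr3:174521820-174522069, both on the minus strand and both higher in topotecan.
Zfp648: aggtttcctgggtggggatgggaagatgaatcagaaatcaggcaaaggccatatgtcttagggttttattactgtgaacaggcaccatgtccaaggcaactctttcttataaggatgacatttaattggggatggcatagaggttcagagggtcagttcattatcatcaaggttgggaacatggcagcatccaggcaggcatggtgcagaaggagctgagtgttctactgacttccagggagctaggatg
Zfp804a: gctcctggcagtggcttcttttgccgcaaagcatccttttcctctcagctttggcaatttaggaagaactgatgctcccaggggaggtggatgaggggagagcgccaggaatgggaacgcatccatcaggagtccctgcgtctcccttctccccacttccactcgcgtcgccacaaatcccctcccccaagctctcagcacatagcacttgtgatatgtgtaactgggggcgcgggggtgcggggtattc
Zfp667: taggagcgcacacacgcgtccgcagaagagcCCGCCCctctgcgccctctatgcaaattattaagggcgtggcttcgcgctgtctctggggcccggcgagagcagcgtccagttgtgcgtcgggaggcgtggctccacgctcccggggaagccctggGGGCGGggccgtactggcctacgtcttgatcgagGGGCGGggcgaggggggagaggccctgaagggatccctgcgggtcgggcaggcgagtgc
Zfp663: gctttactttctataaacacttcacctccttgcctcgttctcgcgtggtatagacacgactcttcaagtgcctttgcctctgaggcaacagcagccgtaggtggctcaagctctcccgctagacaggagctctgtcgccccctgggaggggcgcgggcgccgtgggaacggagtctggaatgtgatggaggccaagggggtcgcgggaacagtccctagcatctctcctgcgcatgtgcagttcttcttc
The stretch before Zfp648 holds 0 CpG dinucleotides and that before Zfp804a 10. Zfp667 has 26 CpG and 3 GC boxes, and Zfp663 has 15 CpG and no GC box. Over the 300-base windows (250 before and 50 after the start) the 180 Zfp genes with a promoter entry had a median of 18 CpG, against 21 for 9636 promoters of tested genes and 7 for all 27457 promoters. The median was 20 for 17 lower Zfp genes, 18 for 30 higher ones and 17 for 133 that were not called. GGGCGG, read on both strands, was found in 48.3% of Zfp windows, 61.7% of those of tested genes and 34.9% of all. It was in 9 of 17 lower and 17 of 30 higher Zfp genes. TATAAA on either strand was in 9.44% of Zfp windows, 6.61% of those of tested genes and 14.3% of all. A core of the NRF1 site (GCGCATGCG) was in 6.67%, 3.4% and 1.66%, and a core of the YY1 site (AAGATGGCG) in 5.0%, 3.57% and 1.93%. These are matches of letters and not binding sites.

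The genes that fell most include several transcription regulators of neural development. Zfp648 (ENSRNOG00000031569) was counted 109 and 91 times with DMSO and 22 and 4 times with topotecan. This is 3.95 and 3.90 CPM against 0.718 and 0.159 CPM, a log2 fold change of -3.08 (SE 0.39, edgeR adjusted p = 3.0e-05). The topotecan libraries differ from each other here, and leaving out topotecan replicate 1 gave -4.58, leaving out topotecan replicate 2 gave -2.44. It is the deepest fall of the group and belongs to a short gene, with a span of 7.87 kb from start to end. Zfp521 (ENSRNOG00000016874), a cofactor with many fingers that drives embryonic stem cells towards the neural lineage, was at 8.67 and 8.14 CPM in DMSO and 2.06 and 2.22 in topotecan. Its log2 fold change was -1.98 (SE 0.19, edgeR adjusted p = 2.0e-06), so all replicates lay close together and the groups were well apart. Zfp423, its closest relative and a regulator of cerebellar development, was at 4.79 and 3.43 CPM in DMSO and 1.96 and 2.46 in topotecan. Its log2 fold change of -0.91 (SE 0.24, edgeR adjusted p = 0.0093) did not pass without DMSO replicate 1 (0.090), without topotecan replicate 1 (0.053) or with DESeq2 (0.057).

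Zfp703 (ENSRNOG00000014199), a co-repressor of the NET family, had 17.6 and 17.8 CPM in DMSO and 7.93 and 8.17 in topotecan. The log2 fold change was -1.14 (SE 0.14, edgeR adjusted p = 2.1e-05), in a gene that spans only 4.17 kb. Its family partner Zfp503 is the gene just below the count limit, counted 18 and 13 times with DMSO and 4 and 3 times with topotecan. Zfp804a, a gene known from schizophrenia association studies, was at 9.75 and 8.99 CPM in DMSO and 4.44 and 4.84 in topotecan. Its log2 fold change was -1.02 (SE 0.17, edgeR adjusted p = 3.0e-04). In the same topotecan libraries the astrocyte, oligodendrocyte and progenitor markers stood at the low levels given above, and their part in these falls was not tested.

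The Zfp385 family, whose fingers resemble those that bind double-stranded RNA, has 3 members among the 218 genes. Zfp385d was at 40.1 and 41.7 CPM in DMSO and 25.2 and 17.6 in topotecan, with a log2 fold change of -0.93 (SE 0.15, edgeR adjusted p = 2.1e-04). Zfp385a, which binds RNA and was named here after its values were seen, went from 4.68 and 4.41 CPM to 2.58 and 2.86 (log2 fold change -0.75, SE 0.21, edgeR adjusted p = 0.011). It did not pass with DESeq2 or without topotecan replicate 1. Zfp385b was at 12.4 and 13.1 CPM in DMSO and 11.9 and 12.2 in topotecan, a log2 fold change of -0.08 (SE 0.14) that did not pass. Zfp385d and Zfp385b span nearly the same distance, 380.9 and 378.5 kb, and the difference between their responses was not tested.

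Of the remaining largest falls, Zfp157 had 53.4 and 61.3 CPM in DMSO and 32.6 and 31.3 in topotecan (log2 fold change -0.84, SE 0.11, edgeR adjusted p = 3.4e-05). Zfp617 had 9.5 and 10.5 CPM in DMSO and 5.94 and 5.20 in topotecan. Zfp687, part of a chromatin complex with Zmynd8, went from 17.6 and 19.7 CPM to 9.63 and 12.5. For each of these 3 genes the call was kept in all 12 alternatives. Zfp407 went from 4.75 and 5.57 to 2.87 and 3.25 CPM, but its log2 fold change of -0.75 (SE 0.20, edgeR adjusted p = 0.0096) did not pass with DESeq2 (0.064) or without topotecan replicate 1 (0.064).

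**Figure D2:**
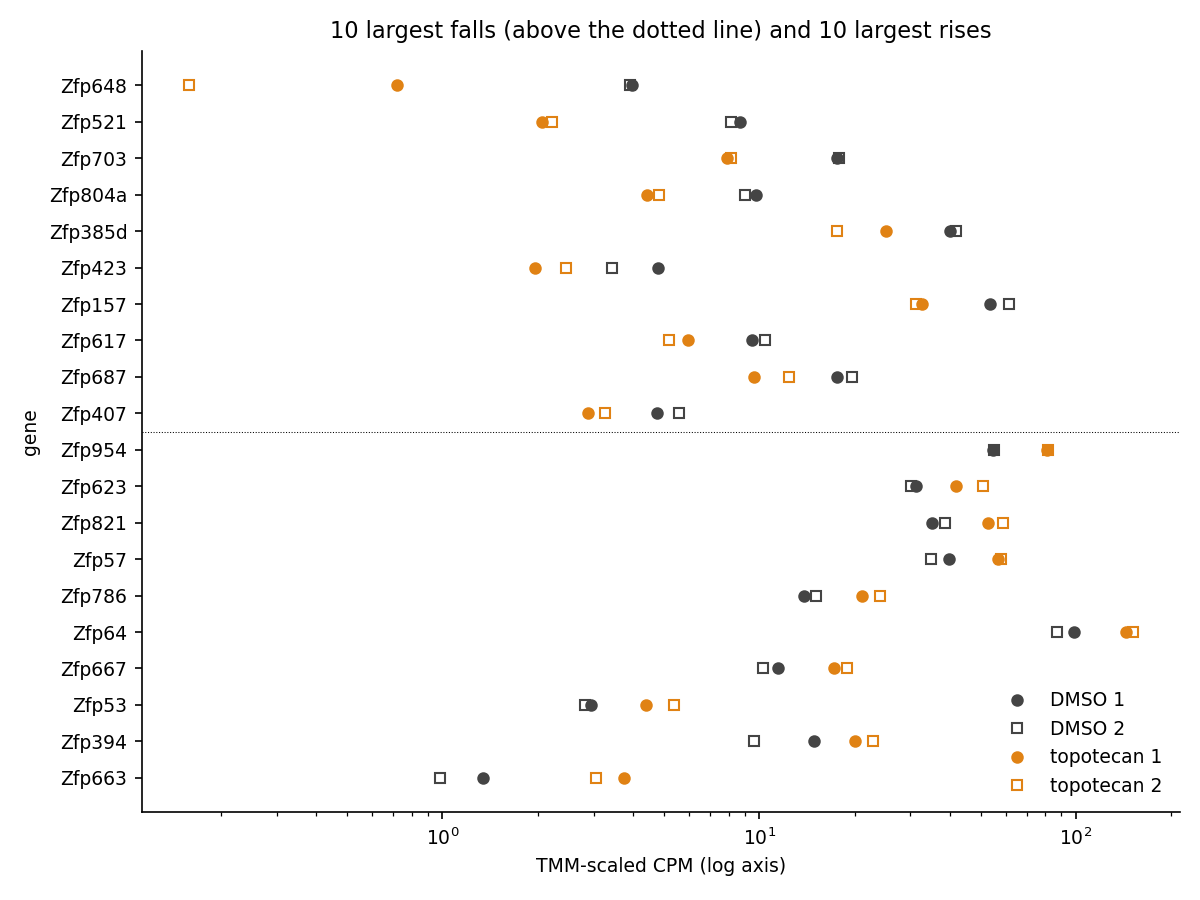
TMM-scaled CPM (log axis) of the 10 largest falls and 10 largest rises among Zfp genes in each of the 4 libraries. Grey marks are DMSO and orange marks topotecan, with circles for replicate 1 and squares for replicate 2. Only genes with separate groups were drawn, so the orange marks lie wholly left of the grey ones for falls and wholly right for rises. Zfp648 has the widest gap between topotecan libraries.

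The largest rise was that of Zfp663 (ENSRNOG00000031478), which was counted 37 and 23 times with DMSO and 115 and 77 times with topotecan. In CPM this is 1.34 and 0.985 against 3.75 and 3.05, a log2 fold change of 1.54 (SE 0.27, edgeR adjusted p = 5.2e-04). Zfp394 went from 14.9 and 9.64 CPM to 20.1 and 22.9 (log2 fold change 0.80, SE 0.18). Separate groups were a condition for naming both genes. The DMSO libraries of Zfp394 differed more from each other than its topotecan libraries did. Zfp53 went from 2.94 and 2.83 CPM to 4.41 and 5.39, a log2 fold change of 0.76 (SE 0.21, edgeR adjusted p = 0.011). It did not pass with DESeq2 (0.055), without topotecan replicate 2 (0.088) or scaled to pan-neuronal genes (0.067). Its next gene on the chromosome, Zfp52, was not called (log2 fold change -0.10).

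Zfp57 (ENSRNOG00000022730), a KRAB protein that keeps imprinted loci methylated in the early embryo, rose. It was at 39.7 and 34.8 CPM in DMSO and 56.7 and 57.9 in topotecan, a log2 fold change of 0.62 (SE 0.11, edgeR adjusted p = 3.9e-04). Zfp445, a KRAB protein that shares this task, was at 87.0 and 110 CPM in DMSO and 82.6 and 84.2 in topotecan. Its log2 fold change of -0.24 (SE 0.11) did not pass (edgeR adjusted p = 0.098), though it did scaled to pan-neuronal genes (-0.48, edgeR adjusted p = 0.0067). With 1 DMSO library left, the log2 fold change of Zfp445 was -0.39 without DMSO replicate 1 and -0.06 without DMSO replicate 2.

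Zfp64 had the smallest p-value among the rises, with 98.5 and 87.0 CPM in DMSO and 144 and 151 in topotecan (log2 fold change 0.67, SE 0.09, edgeR adjusted p = 5.6e-05). Zfp667, also known as Mipu1, went from 11.5 and 10.3 CPM to 17.3 and 19.0 (log2 fold change 0.73, SE 0.14). Zfp786 went from 13.8 and 15.1 CPM to 21.0 and 24.1. These 3 rises amounted to 1.56-fold to 1.66-fold. Zfp821 had 35.1 and 38.5 CPM in DMSO and 52.8 and 58.7 in topotecan. Zfp623 had 31.3 and 30.1 CPM in DMSO and 41.9 and 50.7 in topotecan. Zfp954 had 54.5 and 55.0 CPM in DMSO and 80.9 and 81.7 in topotecan, with both pairs of replicates close together. All of these were called in every one of the 12 alternatives, as were Zfp663, Zfp394 and Zfp57.

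Of the 6 Zfp genes with the highest mean CPM, 3 rose and 3 did not change detectably, while the next in order, Zfp207, was lower. CPM here are not divided by transcript length, so their order among genes is not an order of transcript number. Zfp644, a partner of the histone methyltransferases G9a and GLP, was at 238 and 282 CPM in DMSO and 245 and 263 in topotecan (log2 fold change -0.03, SE 0.09). Zfp180 was at 152 and 151 CPM in DMSO and 154 and 155 in topotecan. Zfp422 was at 150 and 158 CPM in DMSO and 172 and 167 in topotecan (log2 fold change 0.14, edgeR adjusted p = 0.18). None of these 3 passed the test. Zfp330, a nucleolar protein, rose from 176 and 184 to 239 and 242 CPM (log2 fold change 0.42, SE 0.08, edgeR adjusted p = 7.6e-04), and was not called when scaled to pan-neuronal genes (0.19). Zfp637 rose from 175 and 159 to 237 and 243 CPM (log2 fold change 0.52, SE 0.08, edgeR adjusted p = 1.9e-04). Zfp68 rose from 136 and 145 to 179 and 161 CPM (log2 fold change 0.27, edgeR adjusted p = 0.023), but not without topotecan replicate 1 (0.31) or scaled to pan-neuronal genes (0.84).

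Among 27 Zfp genes on a list of neural and developmental roles, 9 were lower and 2 higher, and the medians were -0.14 for log2 fold change and 79.8 kb for span. These are 33.3% lower and 7.41% higher, beside 23.5% and 16.2% of all genes tested. Among all genes the shares were 24.6% and 11.0% at 30 to 100 kb, and 43.5% and 6.06% at 100 kb or more. The list was chosen with earlier results of these data known, so these shares describe it and are not a test. Besides those above, Zfp365, which codes for a partner of the schizophrenia-linked protein DISC1, went from 35.03 and 37.05 CPM in DMSO to 21.3 and 22.3 in topotecan (log2 fold change -0.72, SE 0.11, edgeR adjusted p = 1.9e-04). Zfp24, which oligodendrocytes need to form myelin, went from 34.7 and 33.8 to 22.2 and 20.9 CPM (log2 fold change -0.67, SE 0.11, edgeR adjusted p = 3.8e-04). Both were called in all 12 alternatives. The oligodendrocyte lineage markers, 12 of 12 lower, moved with Zfp24, and their part in its fall was not tested. Zfp91, a ubiquitin ligase, went from 66.5 and 78.4 to 60.9 and 53.8 CPM (log2 fold change -0.34, edgeR adjusted p = 0.025), and did not pass without DMSO replicate 2 (0.092) or without topotecan replicate 2 (0.25).

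Zfp238, which RefSeq calls Zbtb18, codes for a repressor needed for the growth and layering of the cerebral cortex. It rose from 17.4 and 20.6 CPM to 25.3 and 29.3 (log2 fold change 0.52, SE 0.13, edgeR adjusted p = 0.0069) and was named after its values were seen. It was not called without topotecan replicate 2 or scaled to pan-neuronal genes, and its largest adjusted p over the alternatives was 0.16. Among the high-count members that did not pass were Zfp148 (log2 fold change 0.09, SE 0.10), Zfp292 (0.02, SE 0.12) and Zfp410 (-0.03, SE 0.09). Zfp148 is a factor that binds GC-rich promoters, and Zfp410 is known for activating the gene Chd4. Chd4, the remodeller of the NuRD complex, was looked at after its values were seen. Its log2 fold change was -0.36 (SE 0.12, edgeR adjusted p = 0.025). Zfp410 RNA was at 112 to 120 CPM in all libraries, and a link between these genes was not tested. The 11 list members not named in full lay between -0.79 and 0.52, with 1 lower (Zfp367, -0.53) and 1 higher (Zfp238).

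Of 8 members on a list of RNA-binding and translation roles 2 (25%) were lower and 1 (12.5%) was higher, and the median was 0.11. These shares lay near the 23.5% and 16.2% of all genes tested. This list too was chosen with earlier results of these data known. Zfp207, also known as BuGZ, a spindle protein that binds Bub3, went from 150 and 171 CPM in DMSO to 138 and 129 in topotecan (log2 fold change -0.27, SE 0.09, edgeR adjusted p = 0.030). It failed in 5 of the 12 alternatives, among them without DMSO replicate 2 (0.12), without topotecan replicate 1 (0.082), without topotecan replicate 2 (0.25) and with DESeq2 (0.055). Zfp830, a spliceosome-associated protein, rose from 27.1 and 24.1 to 31.1 and 32.8 CPM (log2 fold change 0.32, SE 0.12, edgeR adjusted p = 0.044) and failed in 7 alternatives, including the leave-outs of DMSO replicate 2 (0.11), topotecan replicate 1 (0.12) and topotecan replicate 2 (0.25). Zfp638, an RNA- and DNA-binding protein that spans 119.1 kb, had 105 and 137 CPM in DMSO and 113 and 111 in topotecan. Its log2 fold change was -0.11 (edgeR adjusted p = 0.48) and passed scaled to pan-neuronal genes (-0.35, edgeR adjusted p = 0.046). With 1 DMSO library left, the log2 fold change of Zfp638 was -0.28 without DMSO replicate 1 and 0.1 without DMSO replicate 2. Among those that did not pass were Zfp598 (0.15), a ubiquitin ligase that senses collided ribosomes, Zfp326 (0.17), which links splicing to elongation, Zfp346 (0.06), which binds double-stranded RNA, and Zfp593 (0.34), a ribosome assembly factor.

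The Zfp genes are short as a group, and 5 of the 20 falls were in genes of 100 kb or more. Their median span was 18.9 kb, against 26.0 kb for all genes tested. Of 21 Zfp genes that span 100 kb or more, 5 were lower and none higher in the edgeR fit at an adjusted p under 0.05, a share of 23.8%. Among all genes of that span the shares were 43.5% lower and 6.06% higher. The 5 were Zfp521 (292.9 kb), Zfp804a (230.4 kb), Zfp385d (380.9 kb), Zfp423 (298.6 kb) and Zfp407 (399.2 kb), all above 200 kb. The longest of all, Zfp536 at 463.2 kb, a repressor expressed in neurons, had 3.48 and 2.40 CPM in DMSO and 2.97 and 2.38 in topotecan. Its log2 fold change was -0.14 (SE 0.25), the groups overlapped, and counts of 56 to 96 a library leave a wide error. Zfp40 (263.0 kb, log2 fold change 0.29), Zfp800 (213.5 kb, -0.21) and Zfp385b (378.5 kb) also exceeded 200 kb and did not pass.

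Of 195 Zfp genes under 100 kb, 15 (7.69%) were lower and 35 (17.9%) higher, beside 20.1% and 18.5% of 9879 genes of that span. The difference between long and short Zfp genes in these shares was not tested. For 41 Zfp genes under 10 kb the shares were 7.32% lower and 31.7% higher, beside 15.5% and 25.9% of all genes of that span. The median log2 fold change of Zfp genes was 0.23 under 10 kb, 0.10 from 10 to 30 kb, 0.04 from 30 to 100 kb and -0.14 at 100 kb or more. The medians of all genes in these classes were 0.15, 0.06, -0.07 and -0.34. Across the 216 Zfp genes with a span, Spearman's rho between span and fold change was -0.26, and across all 11777 genes with a span it was -0.28. Genes share the libraries and are not independent replicates.

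**Figure D3:**
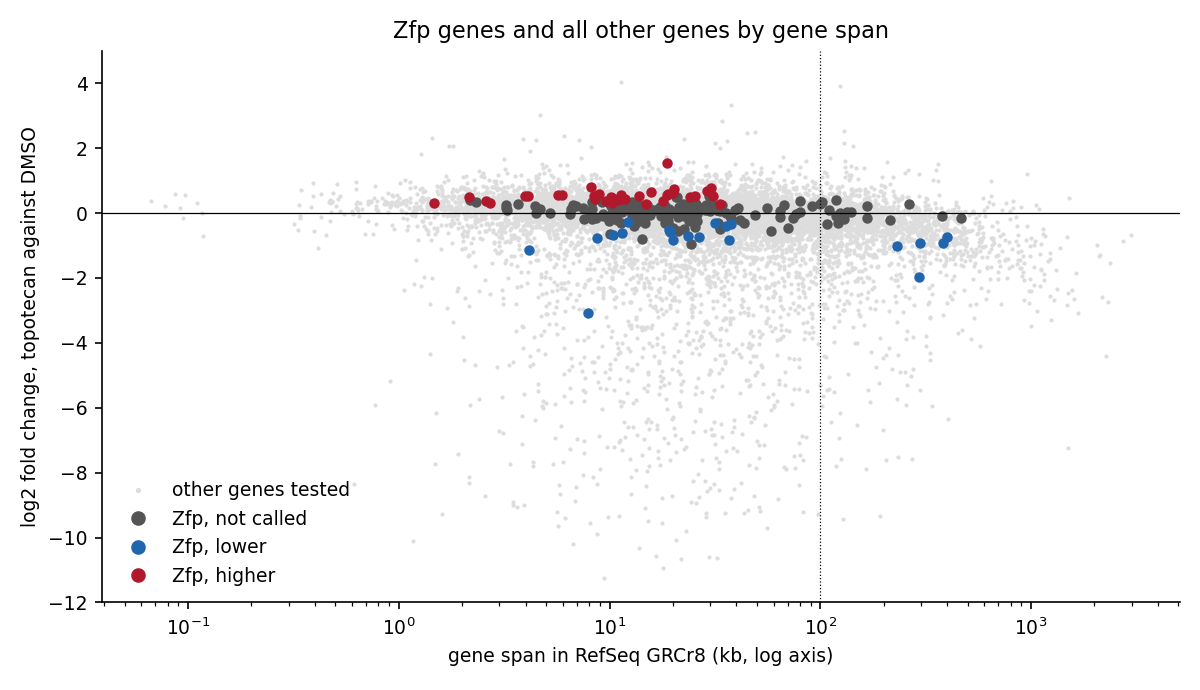
Log2 fold change of topotecan against DMSO by gene span (kb, log axis) for 216 Zfp genes and the other tested genes (light grey). The dotted line marks 100 kb. Zfp genes keep to a narrow band around 0, the red points (higher) all lie below 100 kb, and beyond 100 kb the blue points (lower) all exceed 200 kb, while many other genes lie far below.

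**Figure D4:**
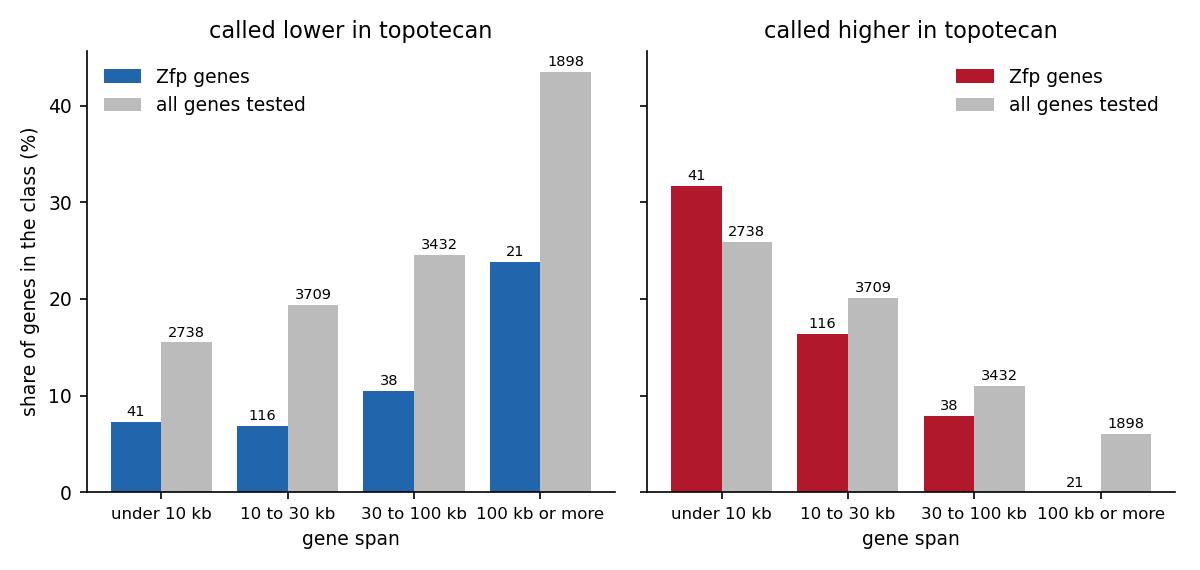
Share of genes called lower (left) and higher (right) in each class of gene span, for Zfp genes (coloured) and all genes tested (grey), with the number of genes above each bar. In each class the share of lower genes was smaller for Zfp genes, for example 23.8% against 43.5% at 100 kb or more.

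Many Zfp genes lie in clusters, as is known for KRAB zinc finger genes. In the order of RefSeq protein-coding genes, 99 of the 218 had a Zfp, Znf, Zscan or Zkscan gene next to them and 116 had none. The rest had no place in that order. Of the 99, 5 were lower and 20 higher (median log2 fold change 0.14, median span 15.6 kb). Of the 116, 15 were lower and 15 higher (median 0.01, median span 21.5 kb). As shares this is 5.05% lower and 20.2% higher of the 99 and 12.9% each way of the 116, beside 23.5% and 16.2% of all genes tested, and the difference between the 99 and the 116 was not tested. All 4 falls of 2-fold or more were among the 116. There were 40 pairs of adjacent Zfp genes. Both were higher in 3 pairs, both were lower in none, 1 was called in 15 and neither in 22. No pair held 1 gene called lower and 1 called higher. The only genes called lower in these pairs were Zfp24 and Zfp266, so opposite calls had little room to arise. Adjacent pairs of all genes were not counted. The 2 fold changes, called or not, had opposite signs in 17 pairs, such as Zfp93 (-0.56, not called) beside Zfp64 (0.67). The pairs that rose together were Zfp773-ps1 with Zfp954, Zfp583 with Zfp667, and Zfp597 with Zfp174, at log2 fold changes of 0.49 and 0.57, 0.54 and 0.73, and 0.56 and 0.51. The longest runs held 5 members. In the run Zfp786, Zfp398, Zfp282, Zfp212 and Zfp956 all 5 fold changes were above 0 and 2 passed, and in the run Zfp560, Zfp26, Zfp426, Zfp266 and Zfp846 only Zfp266 passed (-0.31, edgeR adjusted p = 0.048). Clustered Zfp genes can be close copies, and the sources used here do not say how reads that match several of them were counted.

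Named as a group apart, 32 Zbtb genes, which pair zinc fingers with a BTB domain, had 3 lower and 4 higher (median log2 fold change 0.02), and 13 Znf, Zscan and Zkscan genes had 2 lower and 4 higher (median 0.25). The difference between these groups and the Zfp genes was not tested. Of 31 tested genes for the complex that KRAB proteins recruit, 9 (29.0%) were higher and 2 (6.45%) lower, beside 16.2% and 23.5% of all genes tested, with a median log2 fold change of 0.09 against -0.01. Trim28, the scaffold that binds KRAB domains, was at 0.46 (SE 0.12, edgeR adjusted p = 0.0079) and Setdb1, its histone methyltransferase, at 0.24 (adjusted p = 0.042), both named after their values were seen. Hdac2, a histone deacetylase, went from 43.9 and 41.2 CPM to 68.5 and 65.3, and Sumo3, a small modifier protein, from 276.6 and 277.1 to 396.2 and 381.1. Uhrf1, a methylation cofactor of dividing cells, went from 9.39 and 6.72 CPM to 0.163 and 0.0793, a log2 fold change of -5.96 (SE 0.37, edgeR adjusted p = 1.7e-08). The progenitor markers, 6 of 7 tested lower, moved with Uhrf1, and their part was not tested. A list of 20 tested genes for mRNA decay, partners of the CCCH-type Zfp36 proteins, had 4 (20%) lower and 1 (5.0%) higher (median 0.04). All genes tested had 23.5% lower and 16.2% higher. Both this list and that of the KRAB complex were chosen with earlier results of these data known, so their shares are not a test. No Zfp36 gene is itself among the 218 described here. Elavl1, which stabilises messenger RNA, was lower (-0.89), Cnot7, a deadenylase, was higher (0.36), and Pan2, another, was lower (-0.61).

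More Zfp genes were called higher at greater depth, while the number called lower changed little. The 72 with the fewest counts (57 to 606 summed) had 6 lower and 2 higher, and a median SE of 0.25 on the log2 scale. The 73 with 666 to 2089 counts had 6 lower and 10 higher, with a median SE of 0.16. The 73 with 2103 to 27292 counts had 8 lower and 23 higher, with a median SE of 0.11. The median log2 fold change was -0.04, 0.13 and 0.14 in these classes. Between CPM and fold change, rho was 0.207 for Zfp genes and 0.225 for all genes. Depth and direction of change thus went together, and calls of all genes at like depth were not counted. The smallest log2 change that passed was 0.27 in size, so a smaller change was not detectable for most of these genes. Zfp939 (-0.95, SE 0.41, edgeR adjusted p = 0.080) and Zfp219 (-0.79, SE 0.50, edgeR adjusted p = 0.23), with summed counts of 80 and 62, show the width of the error at low depth.

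The called genes outside the rule for naming were 4 lower, from -0.61 to -0.31, and 20 higher, from 0.27 to 0.56. Zfp143, an activator that binds many promoters, was among the former (-0.39, SE 0.12, edgeR adjusted p = 0.017). Of the 2 identifiers with the symbol Zfp128, that which RefSeq calls Zscan22 was lower (-0.61, adjusted p = 0.013), and the other did not pass (0.28, adjusted p = 0.059). Zfp259 (Zpr1), a protein that shuttles between cytoplasm and nucleus, rose from 122 and 108 to 148 and 146 CPM (0.36, SE 0.09, adjusted p = 0.0059), and Zfp90, a KRAB repressor, was at 0.54 (SE 0.16). These genes were chosen after their values were seen.

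**Figure D5:**
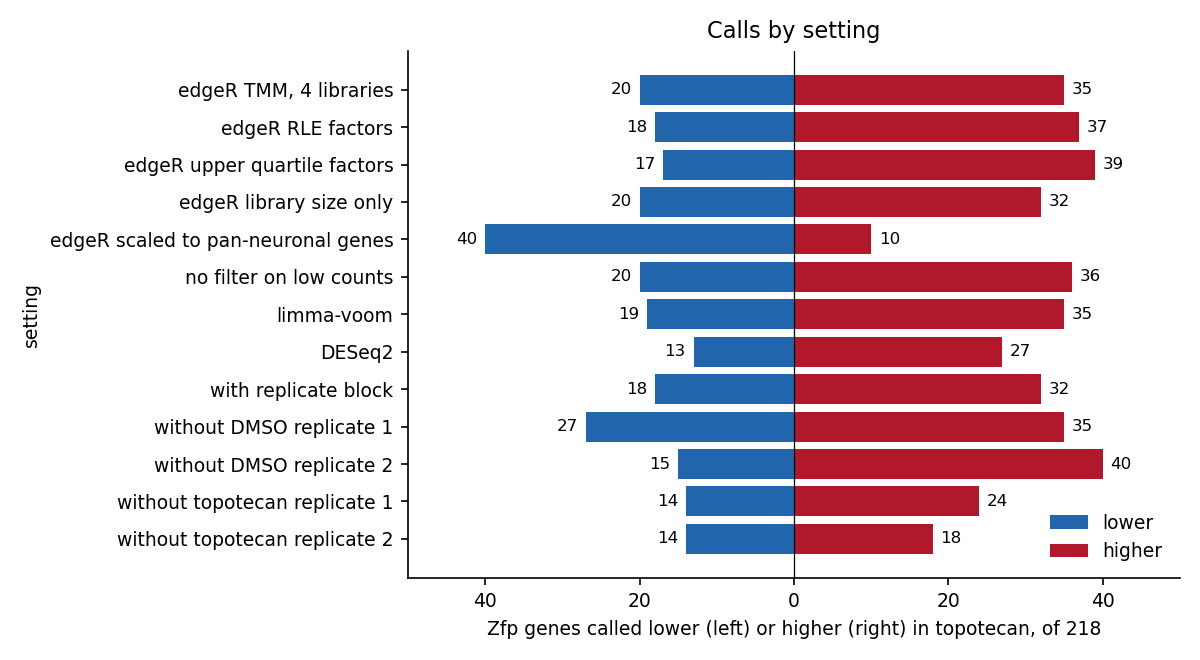
Number of the 218 Zfp genes called lower (blue, left) and higher (red, right) under the TMM fit of all 4 libraries and each of the 12 alternatives. Higher genes outnumber lower ones, 35 to 20, except when libraries are scaled to pan-neuronal genes, where 40 are lower and 10 higher.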

How the data were processed

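The deposited values are raw counts per gene for 4 libraries, in 1 table. STAR and edgeR were used, per the submitters' processing notes. The sources used here do not give versions, genome build, annotation, counting tool or use of strand. The labels' protocols name a small RNA library kit, yet 96.3% to 97.0% of the counts of each library lie on protein-coding genes and 0.00997% to 0.0115% on miRNA genes, so the library type is uncertain. The 22641 rows were reduced to 21648 identifiers, each counted once. Depth was 22957786 to 31181382 counts per library.

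The whole table was fitted with edgeR's quasi-likelihood test (edgeR 4.0.16, R 4.3.3, TMM, filterByExpr with minimum count 10 and minimum total 15, 2 residual degrees of freedom), and p was adjusted by Benjamini-Hochberg over 12162 genes. CPM are after TMM scaling, except for the summed marker levels, which are per library total. SE was obtained as |log2 fold change| over the root of the F statistic. The script was tested on simulated data. DESeq2 1.42.0, limma-voom (limma 3.58.1), other scalings and leave-outs were alternatives. Each leave-out set 1 library against 2, so its p-values rest on the spread within 1 group.

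Spans, neighbours and promoters come from RefSeq (GRCr8), matched for 216 of 218 genes (198 by Entrez number, 18 by symbol). Gene spans may differ from those of the authors' annotation.

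Genes named are the 10 largest rises and falls that passed with a mean of at least 2 CPM and separate groups, the 12 list members and 6 genes with the highest CPM, and the 5 longest. Members and lists were chosen with earlier results of these data known. Microglia, endothelial and fibroblast markers were low: 0, 1 and 3 of them could be tested.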

Additional observations from a re-analysis of the deposited data

How the results depend on the processing

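The counts of lower and higher Zfp genes (20 and 35) moved by more than 1.5 times in few settings. Scaled to pan-neuronal genes they were 40 and 10, and the median log2 fold change reversed from 0.0906 to -0.148. DESeq2 gave 13 lower genes. Leaving out 1 library gave 14 to 27 lower and 18 to 40 higher genes, and the 18 came without topotecan replicate 2. The cause was not tested. The deviations of same-numbered libraries from their group means were hardly correlated (r = -0.04). With 2 libraries per group this does not show whether they were paired. With the replicate as a block 18 Zfp genes were lower and 32 higher. Of 456 values for 38 named genes under the alternatives, 412 kept direction and side of the threshold, 25 lost and 4 gained the call, and 15 changed sign, all in 8 genes that were called neither by TMM on all libraries nor in that setting. Scaled to pan-neuronal genes these were Zfp148 (-0.147), Zfp422 (-0.096), Zfp180 (-0.209) and Zfp292 (-0.214), by library size Zfp180 (-0.0108) and Zfp292 (-0.0138), and by upper quartile Zfp644 (0.00176) and Zfp410 (0.000958). Leaving out DMSO replicate 1 did so for Zfp536 (0.175) and Zfp292 (-0.0537), DMSO replicate 2 for Zfp644 (0.0952), Zfp410 (0.0166) and Zfp638 (0.1), topotecan replicate 1 for Zfp644 (0.0209), and topotecan replicate 2 for Zfp536 (0.00877). The leave-outs ranged from -0.14 to 0.0952 for Zfp644, -0.0702 to 0.0166 for Zfp410, -0.37 to 0.175 for Zfp536, -0.277 to 0.1 for Zfp638 and -0.0537 to 0.119 for Zfp292. Depth limits the 72 Zfp genes with up to 606 counts, whose median SE was 0.25.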
